A study of Mus musculus with 4 samples.

Results

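The amino acid transporters are the carriers of the gene families Slc1, Slc3, Slc6, Slc7, Slc36, Slc38 and Slc43, and they were followed here in elicited peritoneal macrophages of 2 inbred mouse strains. Members were taken by symbol alone: every gene whose symbol is Slc1a, Slc3a, Slc6a, Slc7a, Slc36a, Slc38a or Slc43a with a number after it, except Slc7a11. There were 60 such genes with a probe set of their own, and they are the members, among 22180 genes measured. Slc6a9 shared its only probe set with Ccdc24 and was left out.

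The groups were wild type 129S6/SvEvTac mice (129S6) and wild type C57BL/6 mice (B6), 3 months old and on regular chow. Each mouse received 1 ml of 4% thioglycollate into the peritoneal cavity, and the cells were washed out with 10 ml of buffer 4 days later and kept overnight in medium with 10% serum. There was 1 array per strain and sex, 4 in all, and the labels give equal amounts of RNA from 3 mice for each (the methods of the study give a larger number). A strain is therefore represented by 2 pools of different sex, no pool has a replicate, and the values describe plated cells.

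Amino acid carriers move amino acids across the plasma membrane and out of lysosomes. The Slc7 light chains are joined to a heavy chain, Slc3a2 or Slc3a1, except for the cationic carriers, which work alone, and the Slc1, Slc6, Slc36 and Slc38 carriers couple transport to sodium, protons or other ions. In macrophages arginine uptake feeds both nitric oxide synthase and arginase, large neutral amino acids and glutamine feed growth and mTORC1 signalling, and starvation for amino acids raises many carriers through the transcription factor ATF4.

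ATF4 binds elements with the core TGATGNAA, in which N is any base. RefSeq promoter windows of 300 bases, from 250 before to 50 after an annotated start (GRCm38.p6), were available for 43 members in 62 windows and were searched on both strands. The core occurred in 4 windows of 3 members (Slc1a4, Slc7a7 and Slc6a21), and in 3.97% of all 32851 windows. Slc6a21 was at background on these arrays. The Slc1a4 and Slc7a7 windows are shown because these carriers lay on opposite sides between the strains, Slc1a4 with higher and Slc7a7 with lower values in B6. Capitals mark the core in either orientation, which begins 4 bases before the start of Slc1a4 (chr11:20332664-20332963, minus strand) and 141 bases and 1 base before that of Slc7a7 (chr14:54417895-54418194, minus strand).
Slc1a4: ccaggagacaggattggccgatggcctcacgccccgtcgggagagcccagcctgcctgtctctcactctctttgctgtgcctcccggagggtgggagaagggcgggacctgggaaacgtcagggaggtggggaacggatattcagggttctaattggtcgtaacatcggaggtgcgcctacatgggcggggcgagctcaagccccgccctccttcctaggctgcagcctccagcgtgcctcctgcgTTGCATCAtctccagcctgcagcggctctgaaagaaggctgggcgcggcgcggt
Slc7a7: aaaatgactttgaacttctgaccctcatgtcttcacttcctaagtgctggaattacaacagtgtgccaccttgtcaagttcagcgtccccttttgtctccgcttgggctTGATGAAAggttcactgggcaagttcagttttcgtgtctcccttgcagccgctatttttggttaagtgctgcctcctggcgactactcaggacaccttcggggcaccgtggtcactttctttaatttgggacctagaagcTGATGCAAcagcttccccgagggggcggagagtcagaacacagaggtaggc
A match in these letters is not a binding site. No window was at hand for Slc7a2 or Slc7a5.

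All values below are log2 probe set intensities, and differences are B6 minus 129S6 unless another direction is given. The Y-linked genes Eif2s3y, Kdm5d and Uty read up to 4.71 in the female arrays, and this was taken as the background level. Across genes, arrays of the same strain correlated at 0.988 to 0.989 and arrays of different strains at 0.969 to 0.980. All 6 macrophage markers (Adgre1, Csf1r, Cd68, Itgam, Lyz2 and Mertk) had means above background. Of these, 4 were lower in both B6 arrays (Itgam -0.87, Lyz2 -0.52, Adgre1 -0.45 and Csf1r -0.29), Mertk was higher (0.78), and none passed the test. Other cell markers moved with strain. All 8 markers of resident large peritoneal macrophages were lower in both B6 arrays than in both 129S6 arrays, with a median difference of -2.57. Their log2 summed intensities were 13.51 and 12.98 in 129S6 against 10.64 and 10.48 in B6. Of the 8, 3 passed the test, as did 0.852% of all genes: Cxcl13, Prg4 and Alox15 (limma adjusted p = 0.0364, 0.0438 and 0.0482). Of 8 fibroblast markers 7 were lower in the same way (median -2.29, sums of 11.85 and 11.71 against 8.98 and 9.65). Dcn, Pdgfra and Sparc passed the test (limma adjusted p = 0.0395, 0.042 and 0.042). The 8 interferon-induced genes summed to 12.88 in the B6 female array but to between 10.96 and 11.17 in the others. Siglecf, carried by eosinophils and some macrophages, was higher in B6 (1.88, limma adjusted p = 0.0438). The other eosinophil markers, Epx and Prg2, stayed at background on every array. No mast cell, mesothelial cell or T cell marker passed the test, with the largest differences in Cpa3 (1.11) and Wt1 (-1.06). Of 6 neutrophil markers only S100a8 had a mean above background, and it differed by -1.40 (limma adjusted p = 0.0585). Of the others, Camp was also lower in both B6 arrays, while S100a9, Ngp, Ltf and Ly6g overlapped between strains. All 3 measured B cell markers were lower in both B6 arrays (Cd79a -0.73, Ms4a1 -0.64 and Cd79b -0.16), and none passed the test. Ms4a1 had a mean below background. Of all genes with a mean above background, 27.4% were lower in both B6 arrays. These lists run alongside every strain difference below, and their part in it was not tested. In RNA of mixed cells, fewer cells of a type and less RNA per cell cannot be told apart.

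Elicited macrophages of either strain carried a clear signal for only some of the carriers. Of the 60 members, 27 had a mean above the background level and 33 did not, and 24 stayed at or below it on every array. The 27 are called expressed below, and all genes with a mean above that level expressed genes. The expressed carriers came mainly from the Slc7 family (8 of 14), the Slc38 family (7 of 11), Slc6 (4 of 19) and Slc36 (3 of 4), with 2 of 7 in Slc1, 2 of 3 in Slc43 and 1 of 2 in Slc3.

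The expressed carriers went in both directions, as did expressed genes, of which 28.9% were higher and 27.4% lower in both B6 arrays. Among the expressed carriers some had higher values in both B6 arrays than in both 129S6 arrays, with the largest differences in the essential amino acid carrier gene Slc7a5 and the arginine carrier gene Slc7a1, followed by Slc43a3, Slc1a4, Slc38a2, Slc38a9 and Slc38a1. Others had lower values in both B6 arrays, with the largest differences in Slc6a12, Slc7a2, Slc38a6, Slc7a7 and Slc7a8. None of the 60 members passed the test in either direction (limma with Benjamini-Hochberg adjustment over all genes, adjusted p from 0.0709 to 0.998), against 0.852% of all genes. At an unadjusted p under 0.05 there were 13 members (21.7%, all genes 16.3%), and 11 of the 27 expressed members (40.7%, expressed genes 19.9%). The test rests on 1 residual degree of freedom, and an exact permutation of 2 against 2 arrays cannot go below p = 0.333.

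The values of the strains did not overlap for 32 of the 60 members (53.3%), against 48.9% of all genes. Among the expressed members this held for 21 of 27 (77.8%, all expressed genes 56.3%). Of these, 11 were higher in B6 (40.7%, expressed genes 28.9%) and 10 were lower (37%, expressed genes 27.4%). Such counts take no account of size: Slc38a7 (-0.03) and Slc3a2 (-0.08) are counted as lower. Slc1a5 is counted as higher, although its dimmer probe set went the other way. The difference had the same sign in females and in males for 25 of the 27 expressed members and for 70.1% of expressed genes, but for only 16 of the 33 members at background. The 2 expressed exceptions were Slc7a6 and Slc6a13. Over all 60 members the median difference was -0.06, beside -0.02 for all genes, and over the 27 expressed members it was 0.21, beside 0.01 for expressed genes. The median size of the difference, regardless of sign, was 0.41 in expressed members and 0.21 in expressed genes.

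**Figure D1:**
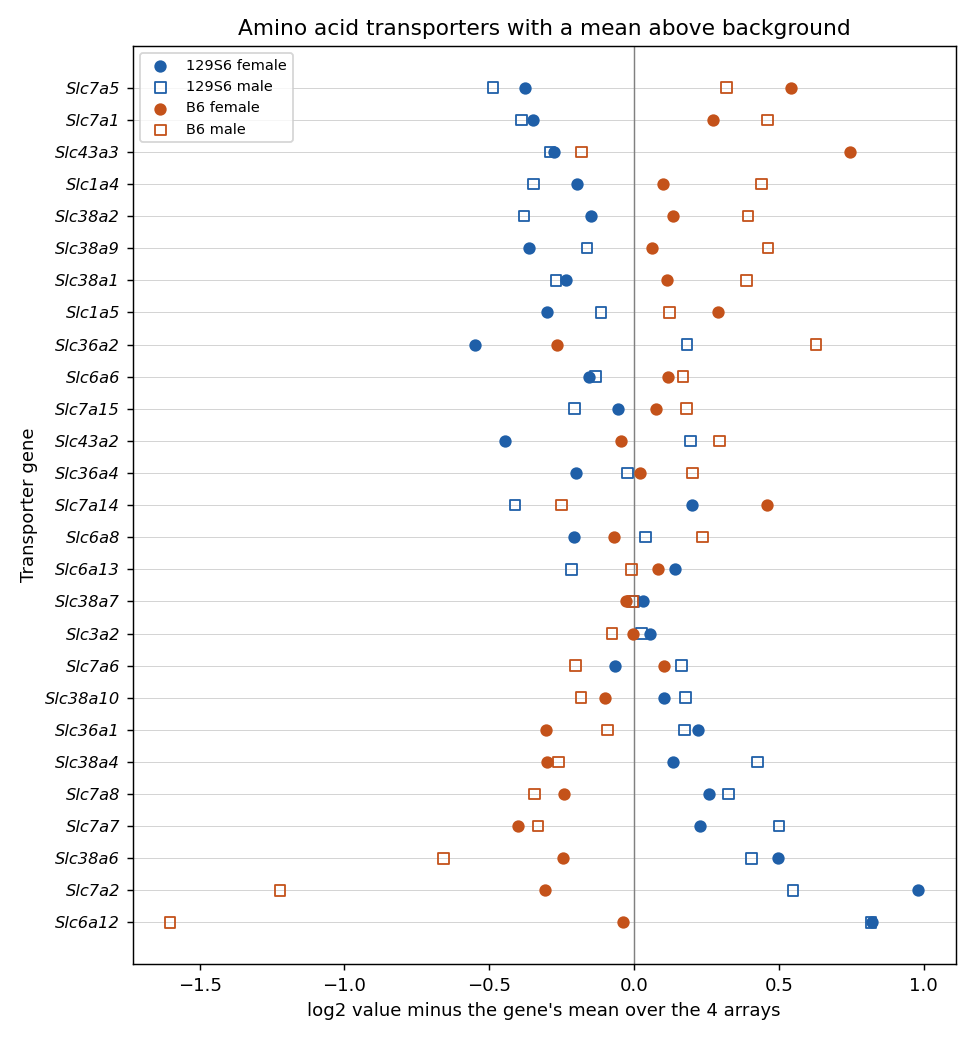
Values of the 27 amino acid transporters with a mean above background, each as the log2 value minus the gene's own mean over the 4 arrays (x axis), with genes on the y axis ordered by strain difference. Circles are female and squares male pools, blue is 129S6 and orange B6; the colours separate for 21 of the 27 genes, with B6 to the right in the 11 genes that were higher in B6 and to the left in the 10 that were lower.

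Carriers of arginine and lysine differed among themselves. Slc7a2 encodes CAT2, the cationic carrier that supplies arginine to activated macrophages. It read 10.38 in 129S6 females, 9.95 in 129S6 males, 9.09 in B6 females and 8.18 in B6 males. The B6 pools were the lower ones in each sex without overlap, and within each strain the male array was the lower. The difference was -1.53 ± 0.19 (SE, 95% interval -2.06 to -0.999), with -1.29 in females and -1.77 in males, and its adjusted p of 0.0709 was the smallest of any member. Slc7a2 was the only member at least 2-fold apart in both sexes. It stood among 1.72% of all genes that were at least 2-fold lower in B6 in both sexes, and no member was among the 1.05% that were 2-fold higher. With 1 array left out the difference ranged from -1.07 (adjusted p = 0.163, without the B6 male) to -1.99 (adjusted p = 0.0255, without the B6 female), and without a 129S6 array it had adjusted p of 0.294 and 0.129. These fits have no sex term, and the one under the threshold sets a lone B6 male pool against 129S6 pools of both sexes.

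Slc7a1 encodes CAT1, the widely expressed cationic carrier. It read 8.45 and 8.41 in the female and male 129S6 arrays and 9.07 and 9.26 in those of B6. The groups were well apart, in the direction opposite to Slc7a2. The difference was 0.74 ± 0.16 (adjusted p = 0.165). Within an array, Slc7a2 minus Slc7a1 differed between strains by -2.27, with -1.91 in females and -2.62 in males, the largest shift of the 6 pairs of related carriers compared. This shift says that the probe sets differed unequally between strains, not which transcript was the more abundant.

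Slc7a7 encodes the light chain y+LAT1, which exports cationic amino acids in exchange for neutral ones and whose loss in humans causes lysinuric protein intolerance. Its values were 9.84 and 10.11 in 129S6 against 9.21 and 9.28 in B6, again without overlap. The difference was -0.73 ± 0.16 (adjusted p = 0.165). The sister light chain gene Slc7a6 (y+LAT2) read 8.60, 8.83, 8.77 and 8.46 in the same order of arrays. Its strains overlapped, and the difference of -0.10 had an interval of -0.65 to 0.46. Slc7a3, another cationic carrier gene, stayed at background.

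Carriers of large neutral amino acids were also split. Slc7a5 encodes LAT1, the main importer of leucine and other essential amino acids into growing cells. It read 8.96 in 129S6 females, 8.84 in 129S6 males, 9.87 in B6 females and 9.65 in B6 males. Both B6 arrays were above both 129S6 arrays by a similar margin in each sex. The difference of 0.86 ± 0.16 (interval 0.43 to 1.29, 1.82-fold) was the largest toward B6 among the members, with an adjusted p of 0.127.

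Slc7a8 encodes LAT2, a light chain for neutral amino acids of any size. It read 11.57 and 11.64 in 129S6 against 11.07 and 10.97 in B6, so that its strains separated the other way. The difference was -0.58 ± 0.16 (adjusted p = 0.216), and Slc7a8 minus Slc7a5 within an array differed by -1.42 in females and -1.48 in males. The common heavy chain gene of both, Slc3a2 (CD98), read 12.29, 12.26, 12.23 and 12.16. Its strains separated only by a small step of -0.08, with an interval of -0.50 to 0.34.

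Slc43a2 encodes LAT4, a facilitative carrier of branched-chain amino acids. It read 9.58 and 10.22 in 129S6 against 9.98 and 10.32 in B6. The strains overlapped, and the difference was 0.25 (adjusted p = 0.537). Slc43a3, whose product carries purine bases rather than amino acids, read 7.98 and 7.96 in 129S6 and 8.07 in the B6 male array, but 8.997 in the B6 female array, which was also the array with the highest interferon-induced sum. The difference of 0.56 ± 0.27 (adjusted p = 0.404) was 1.02 in females and 0.11 in males.

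**Figure D2:**
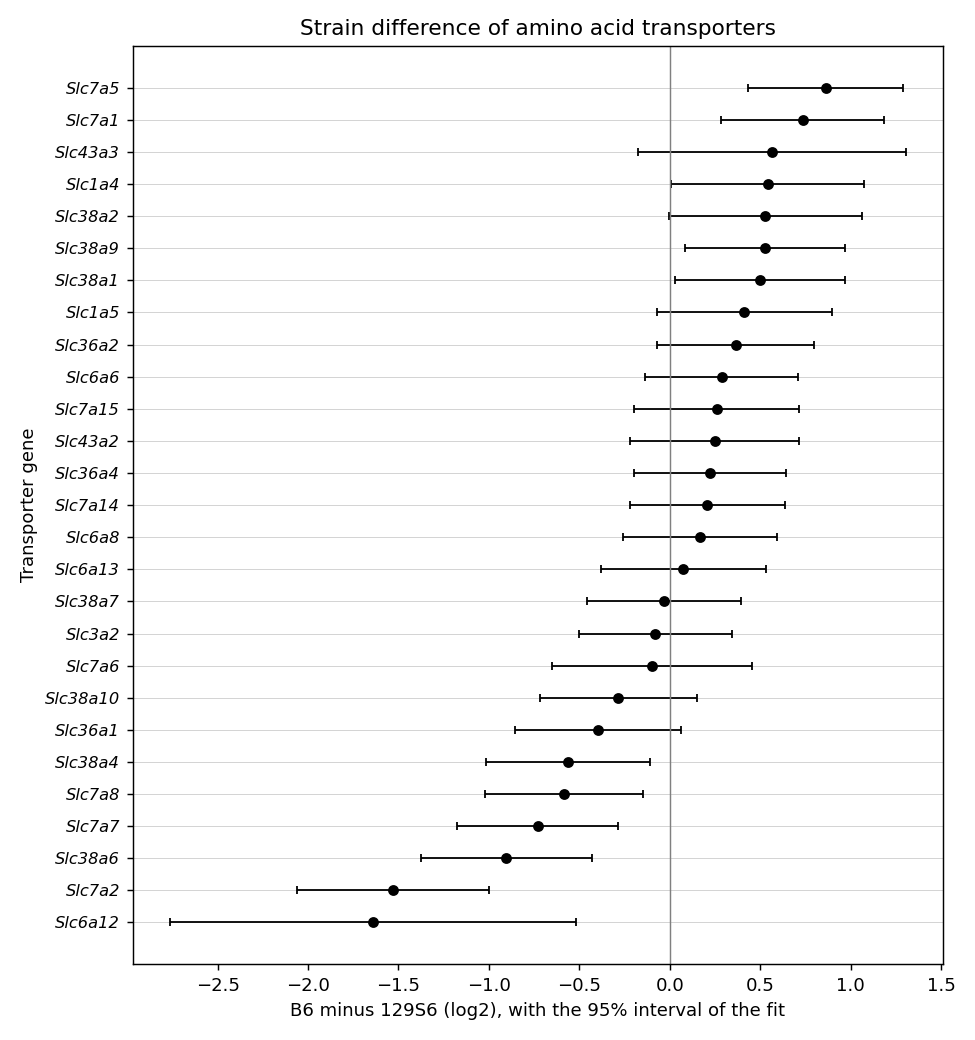
Strain difference, B6 minus 129S6 on the log2 scale (x axis), of the same 27 transporters (y axis). Points are estimates of the fit and bars their 95% intervals, with 2 arrays per strain; the widest bar is that of Slc6a12 (-2.77 to -0.52), and Slc7a2 and Slc6a12 stand farthest to the left.

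Carriers of glutamine and small neutral amino acids lay on both sides. Of the 7 expressed Slc38 genes 3 were higher and 4 lower in both B6 arrays, beside 28.9% and 27.4% of expressed genes. Slc38a7 was among the lower by only -0.03. Slc1a5 encodes ASCT2, an exchanger that imports glutamine. Its brighter probe set read 9.15 and 9.33 in 129S6 against 9.74 and 9.57 in B6, a difference of 0.41 (adjusted p = 0.362) that was 0.049 with the mean of both probe sets. The dimmer set went the other way, at 6.14 and 6.08 in 129S6 against 5.93 and 5.65 in B6, so its direction is not settled. Slc1a4, which encodes the related serine and alanine carrier ASCT1, read 5.18 and 5.03 in 129S6 against 5.47 and 5.81 in B6, a difference of 0.54 (adjusted p = 0.301) not far above background.

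Slc38a2 encodes SNAT2, the carrier that cells make when amino acids run short. It read 10.88 and 10.65 in 129S6 against 11.16 and 11.42 in B6. Its relative Slc38a1 (SNAT1) read 9.89 and 9.85 in 129S6 against 10.23 and 10.51 in B6. In both genes the strains separated, with the B6 male array the highest, and the differences were 0.53 ± 0.20 and 0.50 ± 0.17 (adjusted p = 0.310 and 0.285).

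Slc38a4 and Slc38a6 went the other way. Slc38a4 (SNAT4), which lies near Slc38a1 and Slc38a2 on chromosome 15, read 5.80 and 6.09 in 129S6 against 5.37 and 5.41 in B6 (difference -0.56 ± 0.17, adjusted p = 0.239). Slc38a6, a little studied family member, read 10.82 and 10.73 in 129S6 against 10.08 and 9.67 in B6. Its difference was -0.90 ± 0.17 (1.87-fold, adjusted p = 0.136), and the B6 male array was the lowest. Slc38a10 was also lower in both B6 arrays by a small step (-0.28, interval -0.72 to 0.15), while a dimmer second probe set of it overlapped between strains.

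Carriers of the lysosome showed modest differences. Slc38a9 encodes the lysosomal arginine sensor that signals to mTORC1. It read 8.66 and 8.86 in 129S6 against 9.08 and 9.49 in B6, higher in B6 without overlap (0.52 ± 0.16, adjusted p = 0.250). Slc36a1, which encodes the proton-coupled exporter PAT1, read 10.61 and 10.57 in 129S6 against 10.09 and 10.30 in B6, lower in B6 without overlap (-0.40, adjusted p = 0.355). Slc36a4 (PAT4) read 10.88, 11.06, 11.10 and 11.28, a small separation of 0.22 toward B6 that its dimmer second probe set shared. Slc38a7, the gene of a lysosomal glutamine exporter, lay between 10.61 and 10.67 on all 4 arrays, with a difference of -0.03 and an interval of -0.45 to 0.39.

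Among the Slc6 carriers of osmolytes and energy metabolites, Slc6a12 stood apart. It encodes BGT1, which takes up betaine and GABA and is best known in kidney cells under osmotic stress. It read 9.88 in 129S6 females, 9.87 in 129S6 males, 9.02 in B6 females and 7.45 in B6 males. The 129S6 arrays were nearly equal and both B6 arrays lay below them, the male far more than the female. The difference was -1.64 ± 0.41, with -0.86 in females and -2.42 in males, and the adjusted p of 0.193 went with the largest standard error of any member. With 1 array left out it ranged from -0.86 (adjusted p = 0.169, without the B6 male) to -2.42 (adjusted p = 0.00969, without the B6 female), and without a 129S6 array it had adjusted p of 0.382 and 0.304. The fit under the threshold again keeps only the B6 male pool, whose spread is taken from the nearly equal 129S6 arrays and the prior.

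Slc6a13 (GAT2), the neighbour of Slc6a12 on chromosome 6, read 4.88, 4.52, 4.82 and 4.73, close to background and overlapping between strains. The taurine carrier gene Slc6a6 read 11.81 and 11.83 in 129S6 against 12.08 and 12.13 in B6, a small separation toward B6 (0.29, adjusted p = 0.446). The creatine carrier gene Slc6a8 read 12.08 and 12.33 in 129S6 against 12.22 and 12.52 in B6, and its strains overlapped. The remaining expressed members were Slc7a14, Slc7a15 and Slc36a2, all between 4.37 and 6.25, and of them only Slc7a15 separated by strain, toward B6 (0.26, interval -0.20 to 0.71).

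**Figure D3:**
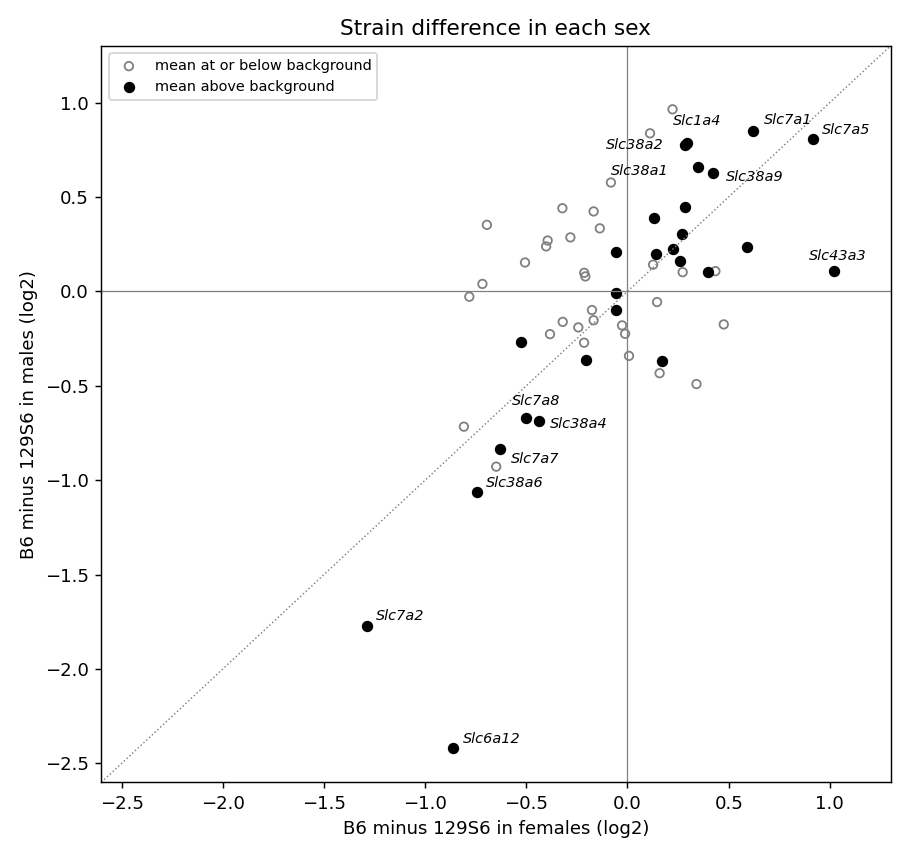
Strain difference of all 60 transporters in females (x axis) and in males (y axis), both as B6 minus 129S6 on the log2 scale, from 1 array per strain and sex. Filled points are the 27 members with a mean above background, 25 of which have the same sign in both sexes; open points are the 33 others, of which 16 do, and the dotted line marks equal differences.

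The members at or below background included most carriers of neurotransmitters: those for dopamine (Slc6a3), serotonin (Slc6a4), noradrenaline (Slc6a2) and glycine (Slc6a5), and the kidney and gut carrier genes Slc3a1, Slc7a9 and Slc6a19. Slc6a20a and Slc6a20b, close copies of each other whose probes may not tell them apart, were there too. The 33 members read between 2.71 and 5.29. The glutamate carrier genes gave the largest differences among them. Slc1a1 (EAAC1) read 4.54 and 5.17 in 129S6 against 3.89 and 4.24 in B6 (-0.79, adjusted p = 0.156), and Slc1a2 (GLT1) read 5.14 and 4.41 in 129S6 against 4.33 and 3.69 in B6 (-0.76, adjusted p = 0.147). Slc1a7 read 4.28, 4.32, 4.51 and 5.29, with a difference of 0.59 (adjusted p = 0.337). Each lay above the background level on 1 array only, so these differences are those of probes near their floor.

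The comparison of sexes asked whether carriers differed between male and female pools. No member passed the test (limma, smallest adjusted p = 0.860), against 0.0135% of all genes. At an unadjusted p under 0.05 there were 8 members (13.3%, all genes 5.22%). Slc36a2, a carrier of small amino acids, read 5.07 and 5.35 in females and 5.80 and 6.25 in males, a male minus female difference of 0.81. Slc43a2 read 9.58 and 9.98 in females and 10.22 and 10.32 in males (0.49), and these were the only 2 of the 8 that were expressed and higher in males.

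On the other side, Slc7a2 was lower in males by 0.43 in 129S6 and by 0.92 in B6 (male minus female -0.67). Slc7a14, close to background, was also lower in males (male minus female -0.61 in 129S6, -0.71 in B6 and -0.66 in the fit). Slc6a12, which was not among the members at an unadjusted p under 0.05, differed by -0.78. This came from the B6 pair alone, since its 129S6 arrays read 9.88 and 9.87. At background, Slc7a4 read 4.25 and 3.97 in females and 4.75 and 5.04 in males, and Slc1a2 was lower in males by 0.68.

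Other genes of amino acid handling were read in the same fit, and none of the 3 lists had a member that passed the test. The list of other amino acid and peptide transporters had all of its 20 genes measured and 15 expressed, of which 6 were higher and 2 lower in B6 without overlap (median of the 15, 0.10). Of all expressed genes 28.9% were higher and 27.4% lower in this way. Slc7a11, which encodes the cystine importer xCT, read 11.44 and 11.14 in 129S6 against 10.78 and 8.76 in B6. Like Slc6a12 it was lowest in the B6 male array (-1.52, adjusted p = 0.238, with -0.66 in females and -2.38 in males). The mitochondrial aspartate and glutamate carrier gene Slc25a13 differed by 0.58, the lysosomal cysteine importer gene Mfsd12 by 0.50 and the peptide and histidine carrier gene Slc15a3 by 0.44.

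Of 34 genes of amino acid sensing by mTORC1 (the complex, its regulators and the targets Tfeb and Tfe3), 33 were measured and 31 expressed, with 12 higher and 8 lower in B6 without overlap (median of the 31, 0.07), beside the same 28.9% and 27.4% of expressed genes. Rragd, a Rag GTPase gene, read 6.62 and 7.28 in 129S6 against 8.29 and 8.59 in B6 (1.49 ± 0.18, adjusted p = 0.0630). Sesn2, the gene of a leucine sensor, read 7.34 and 7.14 in 129S6 against 8.42 and 8.57 in B6 (1.25 ± 0.18, adjusted p = 0.0835). Tfeb, a regulator of lysosomal genes, differed by 1.03 (adjusted p = 0.0965), and Sesn3 by -0.51.

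Of 32 genes of the ATF4 response, 30 were measured and 26 expressed, with 18 higher and 1 lower in B6 without overlap (median of the 26, 0.41). Of expressed genes 28.9% were higher and 27.4% lower in this way. Atf4 itself read 7.67 and 7.75 in 129S6 against 8.15 and 8.10 in B6 (0.41, adjusted p = 0.319). The pseudokinase gene Trib3 differed by 1.16, Ddit3 (CHOP) by 1.08, the serine synthesis gene Psat1 by 0.95 and Chac1, which degrades glutathione, by 0.83, with adjusted p from 0.102 to 0.141. Asns, the asparagine synthetase gene, differed by 0.04, and Cebpb was the 1 expressed gene lower in both B6 arrays (-0.67). Cth (-0.87) and Aldh1l2 (-0.82), whose means lay below background, were also lower in both B6 arrays.

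**Figure D4:**
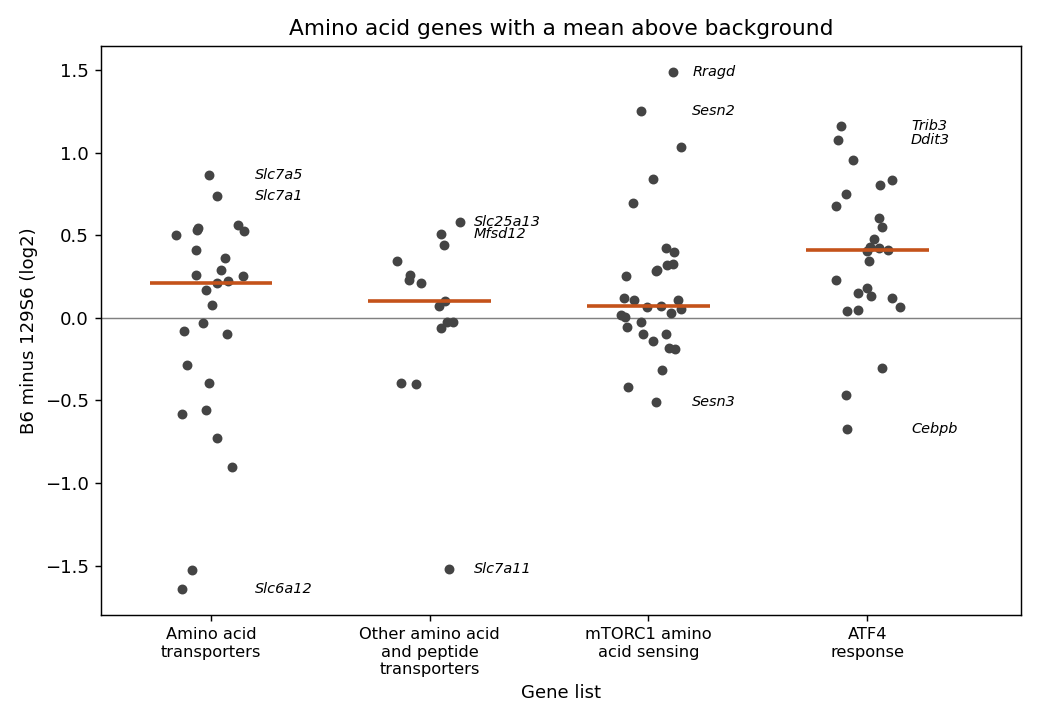
Strain difference, B6 minus 129S6 on the log2 scale (y axis), of genes with a mean above background in 4 lists (x axis): the 27 amino acid transporters, 15 other amino acid and peptide transporters, 31 genes of mTORC1 amino acid sensing and 26 genes of the ATF4 response. Each point is a gene, horizontal position within a list has no meaning, and the orange bars are medians of 0.21, 0.10, 0.07 and 0.41.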

How the data were processed

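Total RNA (250 ng) of 4 macrophage pools was labelled and read on whole-transcript Affymetrix arrays for mouse. The authors deposited log2 probe set intensities made with Affymetrix Expression Console, whose version and summarization are not given in the sources used here. The deposited log2 values ran from 0.79 to 13.81, and array medians of 4.85 to 4.87 show a common scale, so nothing further was normalized. Of 41345 probe sets, 23521 had 1 gene symbol in the platform annotation, 1820 had several and 16004 were not listed. Single-symbol sets were used, and the one with the highest mean was kept for each gene (1082 genes had several). Promoters came from RefSeq (GRCm38.p6).

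Strain and sex were additive terms in limma 3.58.1 (R 4.3.3), with Benjamini-Hochberg adjustment over 22180 genes and a threshold of 0.05. The fit had 1 residual degree of freedom and a prior worth 3.18 more, and an interaction could not be tested. That degree of freedom is the disagreement of the strain difference between the sexes, since no pool had a replicate. P-values rest on it and on the prior, and they cover no spread between like pools. The scripts were tested on simulated data. Arrays carry no count depth, and their number limits the precision.

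The members and lists were chosen with earlier results of these data known. Values on each array are given for members at least 2-fold apart in both sexes, the 8 with the largest strain difference on each side, the 3 with the largest sex difference on each side, the 10 with the highest mean and a list of carriers known in macrophages. Members named beyond that were chosen after their values were seen. Alternatives were a single model term, a variance prior that follows the level, brighter genes only, means of probe sets, all probe sets, quantile normalization and each array left out.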

Additional observations from a re-analysis of the deposited data

Results flagged for a closer look

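Among the expressed members and those with values given on each array, 3 had strain differences of opposite sign in the sexes. Slc7a6 differed by 0.17 in females and -0.37 in males, Slc6a13 by -0.057 in females and 0.21 in males, and Slc7a4 by -0.28 in females and 0.29 in males. None of these differences between the sexes was tested, since there was 1 array per strain and sex. Slc7a6 read between 8.46 and 8.83, while Slc6a13 (4.52 to 4.88) and Slc7a4 (3.97 to 5.04) lay around the background level of 4.71.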

How the results depend on the processing

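No member was called between strains with a single model term, probe set means or quantile normalization, beside 1.94%, 0.906% and 0.365% of all genes. With all 41345 probe sets tested, 0% of all genes were called, members included (smallest limma adjusted p of a member = 0.142). With a variance prior that follows the level, 7 members were called (Slc38a6, Slc6a12, Slc7a1, Slc7a2, Slc7a5, Slc7a7 and Slc7a8), along with 5.66% of all genes. Among brighter genes only, 2 of 24 members and 5.31% of the 11090 genes tested there were called (Slc7a2, adjusted p = 0.0320, and Slc7a5, 0.0464). Leaving out an array gave 0 to 2 members (2 without the B6 female, Slc6a12 and Slc7a2, beside 2.54% of all genes). These fits lack the sex term, and that one sets a single B6 male pool against 129S6 pools of both sexes. The median difference of -0.06 became 0.20 among brighter members, the dim ones having been left out. Over the fits without an array it ran from -0.06 to 0.00. Slc36a2 ran from -0.0826 to 0.81, Slc43a2 from -0.07 to 0.57 and Slc7a4 from -0.53 to 0.54, and all 3 turned negative without the 129S6 female array, Slc36a2 and Slc7a4 also without the B6 male. Without the 129S6 female array the fit sets the 129S6 male pool against B6 pools of both sexes. All 3 genes read higher in males (male minus female 0.81 for Slc36a2, 0.49 for Slc43a2 and 0.79 for Slc7a4). The part of sex in these reversals was not tested. No member was called between sexes in any setting. The variance prior called 2 of the other transporters, 5 of the mTORC1 genes and 10 of the ATF4 genes, beside 5.66% of all genes. Of these 10, only Cebpb was lower in B6. Among brighter genes only, 0 of the other transporters, 3 mTORC1 genes and 4 ATF4 genes were called, beside 5.31% of genes tested. A single model term called Sesn2 and Ddit3, beside 1.94% of all genes. With 2 pools per strain, members near background and small differences could not be resolved.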

Other observations

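The probe set shared by Slc6a9, the glycine carrier gene GLYT1, and Ccdc24 read 5.81 and 5.80 in the female and male 129S6 arrays, then 5.82 in B6 females and 4.71 in B6 males. The B6 male array alone was lower, and the value cannot be assigned to either gene.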
